A study of Homo sapiens with 22 samples.

Results

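Semaphorins, plexins, neuropilins, Ephs and ephrins are the ligands and receptors of 2 contact and guidance systems, and their mRNA was examined in SETD2-null and TGF-β-treated renal epithelial cells. The members were the protein-coding genes whose symbols belong to the semaphorin classes 3 to 7, the plexins A to D, the neuropilins, the Eph receptors or the ephrins. This gave 50 of the 36859 genes in the deposited table, namely 20 semaphorins, 9 plexins, 2 neuropilins, 9 EphA and 5 EphB receptors, 4 ephrin-A genes and 1 ephrin-B gene. EFNB1, EFNA2 and EFNB3 were not analysed here.

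All libraries came from RPTEC, human renal proximal tubule epithelial cells immortalized with hTERT, and all 11 groups held 2 replicates (22 libraries). In 2% serum these were WT cells, WT cells given TGF-β at 10 ng/mL for 72 h, KO1 and KO2 as clones without SETD2, and a group labelled KO2 rescue. In 10% serum these were Rescue1 and Rescue2, clones of KO cells that carry full-length FLAG-tagged SETD2, and WT cells that had taken up a vector for eGFP or for the transcription factor SOX2, OCT2 or PRRX1. KO1, KO2, Rescue1 and Rescue2 are each 1 clone, the transduced WT cells are bulk selections, and the labels do not say which KO clone Rescue1 and Rescue2 come from. Serum cannot be told apart from SETD2 in a comparison of rescue clones with KO clones. The labels do not say that replicates are separate cultures, so the p-values measure the spread between these libraries, which may be technical.

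Semaphorins are secreted or membrane-bound ligands that signal through plexins, which act on small GTPases and so on the cytoskeleton and integrins. The secreted class 3 semaphorins mostly need a neuropilin as the ligand-binding part of the receptor, and neuropilins also serve as co-receptors for vascular endothelial growth factor. Eph receptors are tyrosine kinases that bind ephrins on neighbouring cells, with signals running into both cells, and they set cell repulsion, adhesion and tissue boundaries in epithelia as in the nervous system.

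SETD2, the targeted gene, averaged 1956 normalized counts in WT, 1988 with TGF-β, 1088 in KO1 (−0.84 in log2, adjusted p = 1.3e-07), 1051 in KO2 (−0.89, adjusted p = 1.3e-07), 10305 in Rescue1 and 10105 in Rescue2. The group labelled KO2 rescue had a mean of 827 against 1051 in KO2 (log2 change −0.35, SE 0.07, adjusted p = 0.0038), so SETD2 mRNA goes against that label and the group is written as labelled KO2 rescue. Library totals were 11674491 to 16758645 normalized counts, with an estimated sequencing depth of between 7.69 M and 19.02 M reads, so values near 3 normalized counts rest on a few reads. The WT replicates stood further apart than most duplicates, with a median absolute log2 difference of 0.24 over genes of at least 100 normalized counts, where the range over all groups was 0.13 to 0.27. Most members called with TGF-β had WT replicate 1 nearer the treated libraries than WT replicate 2. These were SEMA7A, SEMA3A, SEMA4B, SEMA6D, PLXNA1, PLXNA3 and PLXNA4. SEMA3C and NRP1 went the other way, and SEMA4G was level. FN1 had 697564 and 180968 in WT and 1719613 and 1710471 with TGF-β, while EPCAM had 3050 and 2764, then 1605 and 1722. Whether such a lean holds over all genes was not tested. Of the proximal tubule markers HNF4A was at 0 in WT, TGF-β-treated and KO libraries, LRP2, SLC5A2 and SLC34A1 did not exceed 7.57 there, and PAX8 had 1535 to 6561. Summed counts of the 7 epithelial markers were 35558 to 37878 in WT, 28765 to 30268 with TGF-β, 10130 to 12050 in KO1 and 19684 to 20650 in KO2. KRT8 and KRT19 made up most of this sum in every library. In KO1 CDH1, EPCAM, KRT8, KRT19 and OCLN were called lower and in KO2 CDH1 and EPCAM, while CLDN1 was called higher in both. Sums of the 7 fibroblast and mesenchymal markers were 844 to 12444 in WT and 46384 to 47791 with TGF-β. In KO1 they were 223505 to 236651 and in KO2 100072 to 103686. DCN made up nearly all in KO and COL1A1 with TGF-β (46598 and 45007), so the sums do not rank the conditions. COL1A1 had 11919 and 532 in WT and 815 to 3751 in KO. DCN, PDGFRA, LUM and THY1 were called higher in both KO clones, and DCN, COL1A1 and PDGFRA with TGF-β. Against TGF-β, COL1A1 was called lower in KO and DCN and THY1 higher. Endothelial markers, from cells rich in neuropilins and ephrins, summed to at most 125 in any library, immune markers to at most 371, and of the neuronal and glial markers ELAVL4, SOX10 and S100B were at 0 in all libraries. Neuronal SNAP25 alone moved in that list, with 4.83 and 2.77 in WT and 391 to 655 in KO. The part that these shifts in cell state have in the results below was not tested. In bulk RNA fewer expressing cells and less mRNA per cell cannot be told apart.

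A normalized count is a read count corrected for sequencing depth, and levels of different members are compared only after division by transcript length, as normalized counts per kb. Of the 50 members, 38 reached 10 normalized counts in 2 or more libraries and were tested. The 12 under that minimum were EPHA1, EPHA3, EPHA5, EPHA6, EPHA7, EPHA8, EPHB1, EPHB3, EPHB6, SEMA3G, SEMA5A and SEMA5B, and their highest value in any library was 34.9 normalized counts, in EPHB1. The test passed 17 of 20 semaphorins, all 9 plexins, both neuropilins, all 5 ephrins, 3 of 9 EphA receptors and 2 of 5 EphB receptors.

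Each class was carried by a few genes. In WT the highest levels were those of SEMA4B, a transmembrane semaphorin, at 1188 normalized counts per kb (n = 2), the neuropilin NRP2 at 829.9 and the plexin PLXNB2, a receptor for class 4 semaphorins, at 825. The order of NRP2 and PLXNB2 was within their spread. SEMA7A, a semaphorin held to the membrane by a lipid anchor, followed at 718 and EPHB2 at 553. These levels use the length of the canonical coding transcript, and the order depends on that choice. NRP2 has 6644 bases in that transcript and 13896 in the union of its exons, SEMA4B 3780 and 6995, and PLXNB2 6409 and 7271. By the union, PLXNB2 lay above SEMA4B, and NRP2 lay below SEMA7A and EPHB2. EPHB2 alone made up 97.5% ± 1.05 (SD, n = 2) of the EphB level in WT and between 81.4% and 99.7% of all Eph receptor mRNA per kb in the 22 libraries. EphA receptors together reached 12.4 ± 6.65 normalized counts per kb in WT, against 567 ± 85.3 for EphB.

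The balance of the classes differed between conditions. The neuropilin total was 911 ± 22.2 normalized counts per kb in WT, against 3518 ± 293 in KO1, 2912 ± 203 in KO2 and 1336 ± 126 with TGF-β (SD, n = 2). Semaphorins were lower in KO, at 2614 ± 34.3 in WT, 1643 ± 257 in KO1 and 1233 ± 77.8 in KO2. With TGF-β their total was 3313 ± 173. In WT the semaphorin total was 2590 and 2639 in the single libraries and the neuropilin total 896 and 927. In contrast, neuropilins stood above semaphorins in all 4 KO libraries. The same order held in the labelled KO2 rescue libraries, with neuropilins at 1436 and 1408 and semaphorins at 1199 and 1186. With eGFP the semaphorin total was also below WT, at 1712 and 1925, beside 1648 and 1571 for neuropilins. The leading semaphorin was SEMA4B in WT (45.4% ± 9.16 of the total), SEMA7A with TGF-β (65.7% ± 1.24), SEMA3C in KO1 (36.9% ± 8.95) and SEMA4B again in KO2 (41.0% ± 0.179). Ephrin-B, of which only EFNB2 was in the table, was 219 ± 16.1 in WT, 30.4 ± 0.818 in KO1, 92.1 ± 11.5 in KO2 and 276 ± 1.24 with TGF-β. These totals are descriptions, with no test of the sums. They rest on the same transcript lengths, and with the union of exons the neuropilin totals would be smaller.

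**Figure D1:**
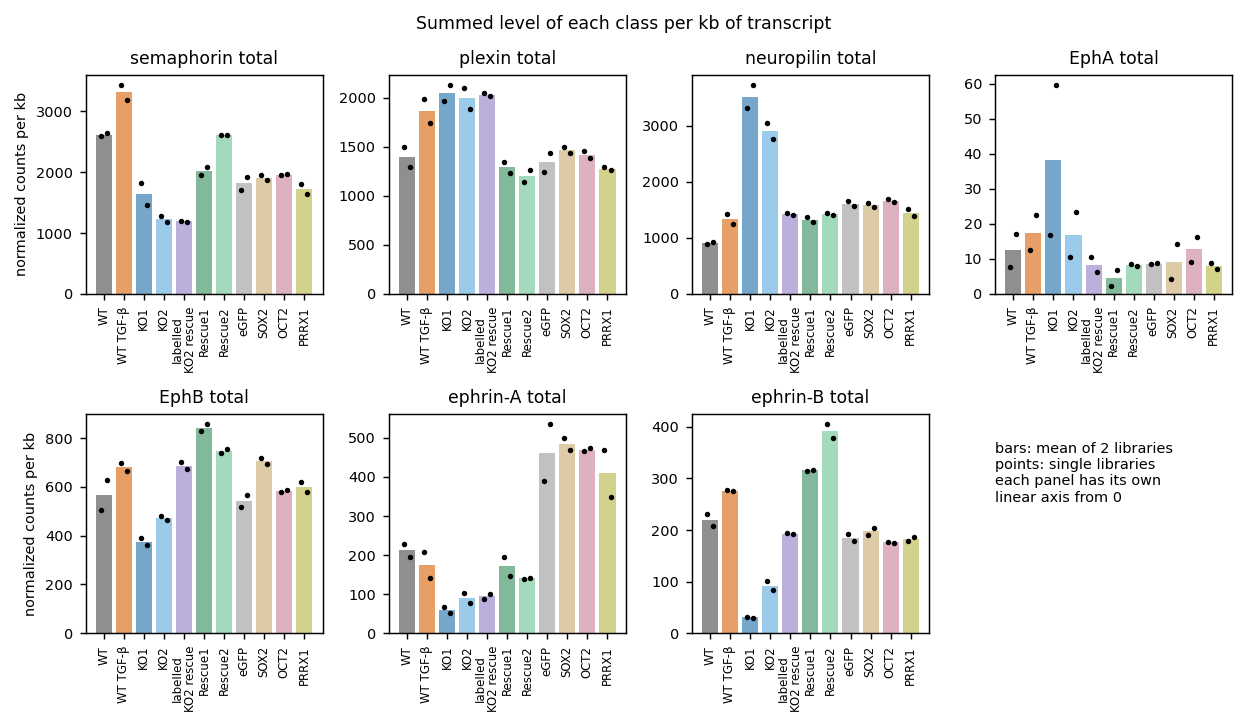
Summed normalized counts per kb of transcript (y axes, linear from 0) of the 7 classes in 11 groups (x axes), with bars for the mean of 2 libraries and points for single libraries. Neuropilins are highest in KO1 and KO2, ephrin-B is lowest there, and semaphorins reach 3313 with TGF-β and 1233 in KO2.

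The reference sequence before the start of transcription is shown for EFNB2, SEMA7A and NRP2, because all 3 changed in both KO clones and they differ in how they stood with TGF-β. Each line gives 250 bases that end at the base before the start, 5′ to 3′ on the strand of the gene, from RefSeq on GRCh38.p14, and capitals mark CACCTG or its reverse complement CAGGTG, an E-box that SNAIL and ZEB factors can bind.
EFNB2, chr13:106535663-106535912, minus strand: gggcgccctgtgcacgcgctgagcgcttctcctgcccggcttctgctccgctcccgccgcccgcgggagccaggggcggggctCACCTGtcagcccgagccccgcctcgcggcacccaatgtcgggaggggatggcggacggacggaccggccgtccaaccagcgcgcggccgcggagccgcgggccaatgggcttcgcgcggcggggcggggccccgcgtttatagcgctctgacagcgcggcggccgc
SEMA7A, chr15:74433959-74434208, minus strand: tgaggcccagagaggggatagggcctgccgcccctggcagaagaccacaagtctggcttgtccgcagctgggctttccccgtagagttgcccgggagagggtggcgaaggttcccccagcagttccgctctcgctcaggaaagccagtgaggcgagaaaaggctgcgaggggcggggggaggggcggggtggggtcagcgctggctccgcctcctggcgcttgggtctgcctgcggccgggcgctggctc
NRP2, chr2:205682251-205682500, plus strand: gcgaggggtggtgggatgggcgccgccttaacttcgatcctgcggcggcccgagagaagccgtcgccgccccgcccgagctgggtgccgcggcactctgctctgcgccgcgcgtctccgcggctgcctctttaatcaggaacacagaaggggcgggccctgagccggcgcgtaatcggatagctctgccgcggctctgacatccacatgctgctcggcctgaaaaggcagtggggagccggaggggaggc
The E-box stood once before EFNB2, with its first base 167 bases before the start, and its letters were not in the other two windows. It was found on either strand in 6143 of 35116 promoters of this length (17.5%). By gene it was in 5635 of 27305 genes (20.6%) and in 11 of the 45 members with an entry (24.4%), namely EFNB2, EPHA1, EPHA6, EPHA7, EPHB2, PLXNB3, SEMA3B, SEMA3F, SEMA3G, SEMA4A and SEMA4F. The octamer ATGCAAAT of OCT factors was in 1 member, SEMA3F (2.22%), against 2.03% of genes, and the SMAD palindrome GTCTAGAC was in 0 members against 0.231% of genes. The AP-1 site TGANTCA was in 1 member, PLXNC1, against 8.06% of genes. None of the 4 motifs contains another, and both strands were read for each. A match is a description of letters and no evidence of binding. The 3 windows hold 40, 17 and 29 CpG pairs in the order shown, where the median over all promoters was 11. NRP1, SEMA3A, SEMA6A, SEMA6B and EPHA10 had no entry.

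**Figure D2:**
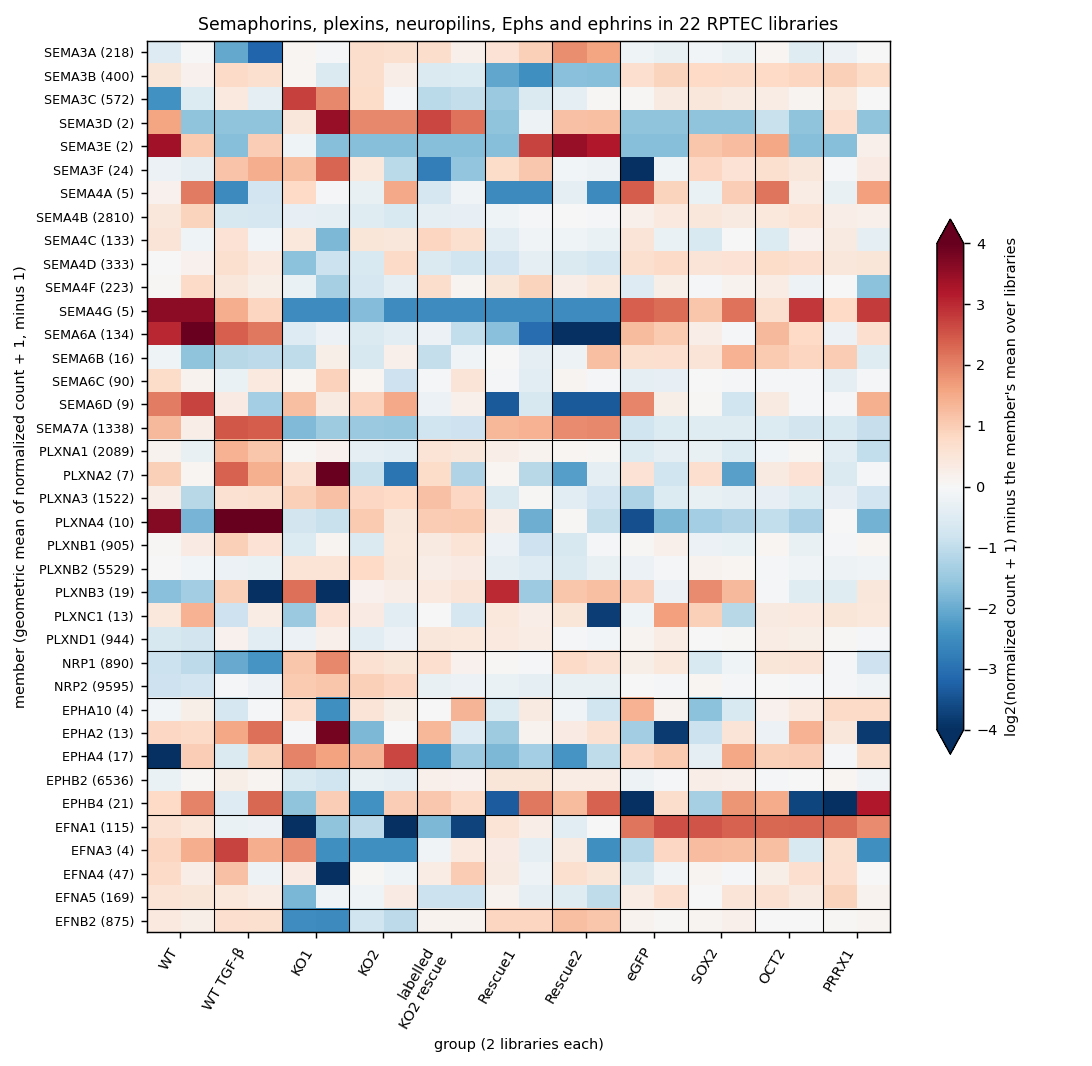
Members tested (rows, by class, with the geometric mean over libraries in brackets) in 22 libraries (columns, 2 per group), where colour is log2(normalized count + 1) minus the member's mean over all libraries. SEMA6A and SEMA4G are highest in WT, NRP2 is highest in KO, and the low-count EPHB4 differs widely between duplicates (0 and 199.8 with PRRX1).

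TGF-β treatment raised 3 plexins and 2 semaphorins and lowered 4 other semaphorins and NRP1. A gene was called with a Benjamini-Hochberg adjusted p under 0.05 (limma) and an absolute log2 change over 1. In total 10 of the 38 members (26.3%) were called, 5 higher and 5 lower, where 7.84% of all 14585 genes tested were called. With library totals made equal the split was 3 higher and 6 lower, without the calls of SEMA3C and PLXNA3. The median change of the members was −0.06 and that of all genes 0.00. No Eph or ephrin was called, and without adjustment of the p-values the count was 12.

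Among the ligands, SEMA7A had 3256 and 1592 normalized counts in WT and 7513 and 7165 with TGF-β. Both treated libraries lay above both WT libraries, which themselves differed by more than the treated ones. The log2 change was 1.69 (SE 0.23, adjusted p = 1.1e-04). SEMA3A, a secreted ligand that binds NRP1, had 151 and 220 in WT and 51.6 and 23.2 with TGF-β, with no overlap (log2 change −2.36, SE 0.32, adjusted p = 1.0e-04). SEMA4B fell from 3808 and 5172 to 1785 and 1760 (−1.32 in log2, SE 0.11, adjusted p = 1.6e-06), and its treated libraries were far closer to each other than those of WT. SEMA3C, a secreted ligand for both neuropilins, had 105 and 388 in WT and 756 and 433 with TGF-β (log2 change 1.50, SE 0.49, adjusted p = 0.049). This call was lost without WT replicate 1 (0.56), TGF-β replicate 1 (1.10) or TGF-β replicate 2 (1.90), and the change was 2.44 without WT replicate 2. SEMA4G and SEMA6D, transmembrane ligands at low counts, moved by −2.42 (adjusted p = 0.043) and −2.87 (adjusted p = 0.040) in log2. SEMA4G had 67.2 and 67.4 in WT and 14.6 and 9.38 with TGF-β, and its call was lost without WT replicate 1 (−2.43) or 2 (−2.42) or TGF-β replicate 1 (−2.72) or 2 (−2.13). The call of SEMA6D was lost without WT replicate 1 (−3.21) or 2 (−2.54) or TGF-β replicate 2 (−2.03).

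Among the receptors, PLXNA1 had 2292 and 1712 normalized counts in WT and 5494 and 4535 with TGF-β. The groups did not overlap, and the log2 change was 1.33 (SE 0.17, adjusted p = 5.1e-05). PLXNA4, a receptor for class 6 and class 3 semaphorins, had 144 and 2.15 in WT and 565 and 419 with TGF-β (log2 change 4.51, SE 1.31, adjusted p = 0.026). Its size rests on the WT replicates, with 7.27 when WT replicate 1 was left out and 1.75 when WT replicate 2 was, where the call was lost, as it also was without TGF-β replicate 1 (4.29) or 2 (4.73). PLXNA3 had 1816 and 708 in WT and 2320 and 2348 with TGF-β (log2 change 1.04, SE 0.34, adjusted p = 0.048), and was 1.72 without WT replicate 1 and 0.36, not called, without WT replicate 2. Without TGF-β replicate 1 (1.05) or 2 (1.03) PLXNA3 was not called either. NRP1 fell from 492 and 428 to 220 and 174 (−1.23 in log2, SE 0.26, adjusted p = 0.0044) and was not called without TGF-β replicate 2 (−1.06). NRP2 had 5372 and 5656 in WT and 9208 and 8077 with TGF-β, which was 0.65 higher on the log2 scale (SE 0.07, adjusted p = 2.2e-05) and under the fold required. Per kb NRP2 therefore stood 9.27 and 11.2 times above NRP1 in the WT libraries and 35.6 and 39.4 times above it with TGF-β. The number of members called dropped to 6 when TGF-β replicate 1 was left out and to 4 when TGF-β replicate 2 was.

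Both SETD2 KO clones gained neuropilins and SEMA3C and lost SEMA7A, SEMA6A, SEMA4G and EFNB2. In KO1, 12 of the 38 members (31.6%) were called, 5 higher and 7 lower, where 25.0% of all genes were called. In KO2, 11 (28.9%) were called, 5 higher and 6 lower, where 16.3% of all genes were called. The median change of the members was −0.68 in KO1 and −0.29 in KO2, and that of all genes 0.00 in both. When library totals were made equal, the median of all genes moved by −0.41 in KO1 and −0.22 in KO2 (−0.23 with TGF-β), and the split in KO1 became 4 higher and 11 lower, without the call of EPHA4. The changes here are relative to the unscaled median. KO1, KO2 and TGF-β are compared with the same WT libraries, so their values stand side by side and are not independent. The eGFP cells, with more serum and a vector, were compared with these WT libraries too. There NRP1 (1.29) and SEMA3C (1.69) were called higher and SEMA7A (−1.44) and SEMA6A (−2.34) lower, the same directions as in KO.

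**Figure D3:**
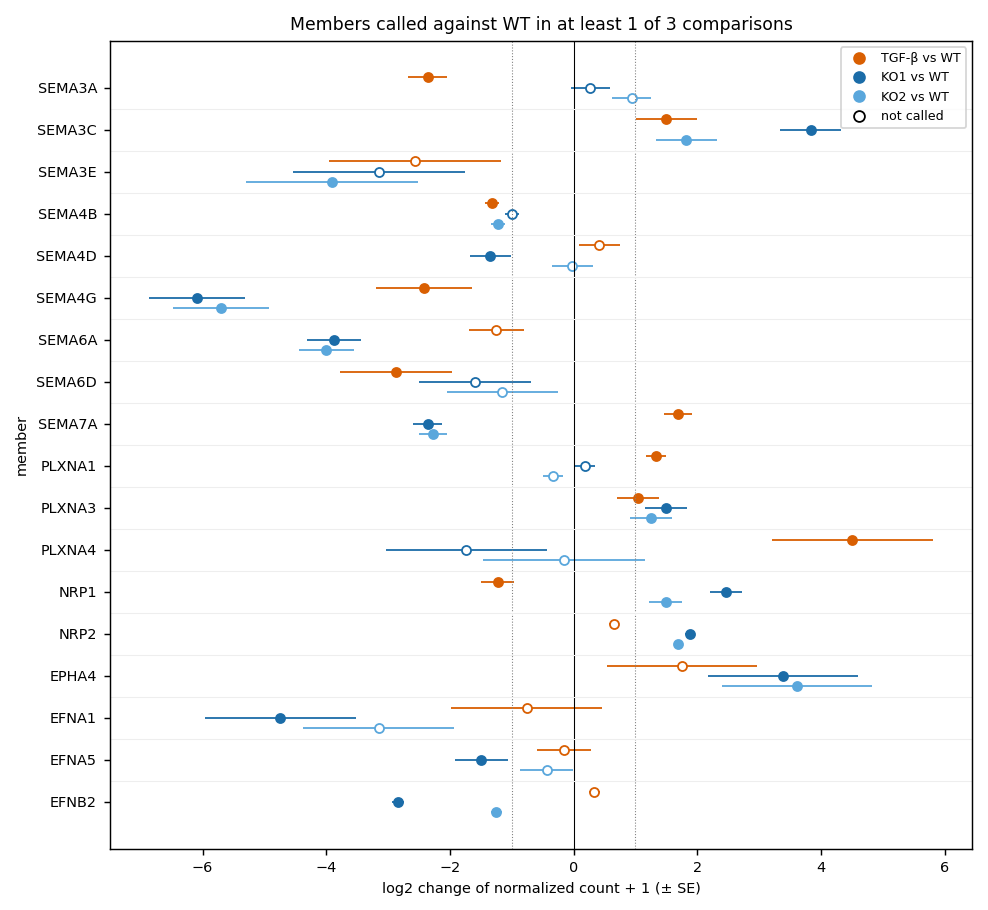
Log2 change of normalized count + 1 against WT (x axis, points with SE) for the members (y axis) called with TGF-β, in KO1 or in KO2, with open points for changes not called and dotted lines at the fold required. SEMA7A (1.69 with TGF-β, −2.36 in KO1) and NRP1 (−1.23 and 2.47) lie on opposite sides of 0.

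NRP2 had 19725 and 20802 normalized counts in KO1 and 18716 and 16940 in KO2, against 5372 and 5656 in WT. All 4 KO libraries lay above WT and above every other library. The log2 changes were 1.88 (SE 0.07, adjusted p = 4.0e-11) and 1.69 (SE 0.07, adjusted p = 2.4e-10). NRP1 had 1926 and 3349 in KO1 and 1345 and 1232 in KO2, all above the 492 and 428 of WT, with log2 changes of 2.47 (SE 0.26, adjusted p = 2.7e-06) and 1.49 (SE 0.26, adjusted p = 5.1e-04). PLXNA3, a plexin that pairs with neuropilins, had 2936 and 3443 in KO1 and 2726 and 2660 in KO2 (log2 changes 1.49, adjusted p = 0.0027, and 1.25, adjusted p = 0.012, SE 0.34 in each). Its WT replicates had 1816 and 708, and both calls rest on them. Without WT replicate 2 the changes were 0.81 and 0.57 and neither was called, and without WT replicate 1 the KO2 change was 1.93. The KO2 call of PLXNA3 was also lost without KO2 replicate 1 (1.23) or 2 (1.27). PLXNB2 stayed under the fold required, with 0.60 (adjusted p = 2.8e-04) for KO1 and 0.69 (adjusted p = 1.3e-04) for KO2.

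SEMA3C was the one semaphorin called higher in KO1 or KO2, at 3849 and 2181 normalized counts in KO1 and 943 and 543 in KO2, against 105 and 388 in WT. No KO library overlapped with WT, and the log2 changes were 3.84 (SE 0.49, adjusted p = 1.7e-05) and 1.82 (SE 0.49, adjusted p = 0.011). The KO2 change of SEMA3C was 0.88 without WT replicate 1 and 1.42 without KO2 replicate 1, not called in either case, and 2.76 without WT replicate 2. SEMA7A fell to 389 and 502 in KO1 and 477 and 463 in KO2, from 3256 and 1592 in WT. The clones did not overlap with WT and overlapped with each other (log2 changes −2.36, SE 0.23, adjusted p = 9.7e-07, and −2.28, SE 0.23, adjusted p = 2.4e-06). SEMA6A, a transmembrane ligand of PLXNA2 and PLXNA4, had 1103 and 2094 in WT, 92.6 and 113 in KO1 and 88.7 and 100 in KO2. Its log2 changes were −3.88 (SE 0.44, adjusted p = 4.9e-06) and −3.998 (SE 0.44, adjusted p = 6.0e-06). SEMA4G, at 67.2 and 67.4 in WT, was at 0 in both KO1 libraries and had 0.729 and 0 in KO2, at least 22.4-fold lower in each clone against a floor of 3 normalized counts per library (adjusted p = 1.6e-05 and 4.7e-05).

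Other semaphorins moved less or in 1 clone. SEMA4B had 2239 and 2201 normalized counts in KO1 and 1990 and 1831 in KO2, with log2 changes of −0.999 (SE 0.11, adjusted p = 4.7e-06), just under the fold required, and −1.22 (SE 0.11, adjusted p = 1.0e-06), which came to −0.996 and was not called without WT replicate 2. SEMA4D, the ligand of plexin-B1, had 107 and 182 in KO1 against 335 and 379 in WT (log2 change −1.34, SE 0.33, adjusted p = 0.0045), and −0.96 without KO1 replicate 1, where the call was lost. In KO2 its libraries had 217 and 570, on both sides of WT. SEMA3E, a ligand of plexin-D1 that needs no neuropilin, was at 0 in both KO2 libraries and at 32.1 and 5.76 in WT. It was at least 6.32-fold lower by the WT mean (adjusted p = 0.047), though WT replicate 2 lay near the floor. Its call was lost without WT replicate 1 (−2.76) or KO2 replicate 1 or 2 (−3.90 in each). SEMA3A had 357 and 343 in KO2 against 151 and 220 in WT (0.94 in log2, adjusted p = 0.037), under the fold required.

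EFNB2, a transmembrane ephrin that binds EphB receptors and EPHA4, stood at 1151 and 1037 normalized counts in WT, fell to 155 and 149 in KO1 and reached 501 and 419 in KO2. The 3 groups did not overlap, and KO1 lay lowest. The log2 changes were −2.84 (SE 0.09, adjusted p = 5.1e-12) and −1.25 (SE 0.09, adjusted p = 8.8e-08). EFNA1, a lipid-anchored ephrin and ligand of EPHA2, had 176 and 153 in WT and 0 and 36.8 in KO1 (log2 change −4.75, SE 1.22, adjusted p = 0.0062), and leaving out KO1 replicate 1 gave −2.13, not called, while leaving out KO1 replicate 2 gave −7.37. In KO2 it had 54.9 and 5.14, below WT and not called. EFNA5 had 249 and 236 in WT and 47.2 and 155 in KO1 (log2 change −1.49, SE 0.43, adjusted p = 0.013), and lost its call without WT replicate 1 (−1.45) or KO1 replicate 1 (−0.64), with −2.34 without KO1 replicate 2.

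EPHA4, the one Eph receptor called, had 71.3 and 54.3 normalized counts in KO1 and 46.3 and 115 in KO2. In WT it had 0 and 35.3, below every KO library (log2 changes 3.39, SE 1.22, adjusted p = 0.038, and 3.62, SE 1.22, adjusted p = 0.037). Without WT replicate 1 the changes were 0.80 and 1.02, not called, and without WT replicate 2 they were 5.98 and 6.21. The KO1 call was also lost without KO1 replicate 1 (3.20) or 2 (3.58) and the KO2 call without KO2 replicate 1 (4.26) or 2 (2.97). EPHB2, the receptor that dominates the class, had 5495 and 6699 in WT, 4281 and 3778 in KO1 and 5263 and 4978 in KO2. Its log2 change in KO1 was −0.59 (adjusted p = 1.2e-04), under the fold required.

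**Figure D4:**
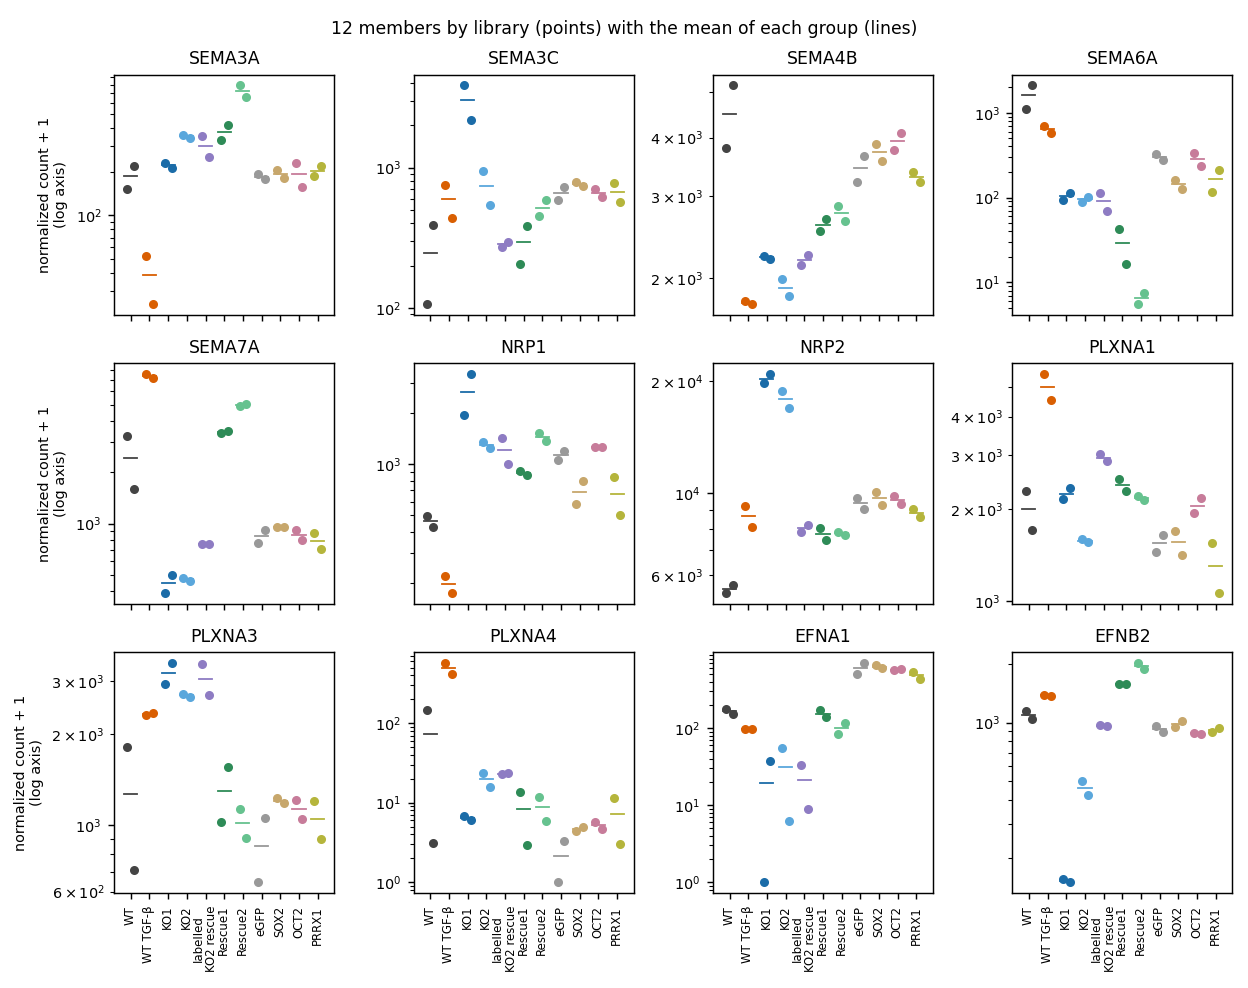
Normalized count + 1 (y axes, log scale, each panel with its own range) of 12 members by group (x axis), with points for libraries and lines for the mean of 2. SEMA7A runs from 389 in KO1 to 7513 with TGF-β, and SEMA6A falls from WT through KO to Rescue2.

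KO and TGF-β were then compared directly, with KO as the mean of both clones. In total 14 members (36.8%) were called, 5 higher and 9 lower in KO, where 20.2% of all genes were called (median change −0.58 for the members and −0.02 for all genes). SEMA7A was lower in every KO library (389 to 502) than in both TGF-β libraries (7513 and 7165), a log2 difference of −4.01 (SE 0.20, adjusted p = 5.4e-10). NRP1 differed by 3.20 (SE 0.23, adjusted p = 3.5e-08) and SEMA3A by 2.97 (SE 0.27, adjusted p = 6.2e-07), both higher in KO with no overlap. NRP2 was higher in KO by 1.14 (SE 0.06, adjusted p = 2.1e-09), and by 0.94 with quantile normalization, under the fold required. EFNB2, at 1385 and 1377 with TGF-β, was lower in KO by −2.38 (SE 0.08, adjusted p = 6.5e-12), and the TGF-β libraries lay above WT by 0.34 (adjusted p = 0.019), under the fold required. The plexins called were both lower in KO, PLXNA4 by −5.45 (SE 1.13, adjusted p = 0.0014) and PLXNA1 by −1.41 (SE 0.14, adjusted p = 1.7e-06).

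SEMA6A was also lower in KO than with TGF-β (−2.69, SE 0.38, adjusted p = 4.9e-05), with 701 and 583 in the TGF-β libraries. SEMA4G, at or under the floor in KO, was at least 3.999-fold lower (adjusted p = 8.0e-04). SEMA3D, a secreted class 3 ligand, was at 0 in both TGF-β libraries and at 3.16 to 33.2 in KO. It was at least 4.80-fold higher by the KO mean (adjusted p = 0.0084), and lost its call without TGF-β replicate 1 or 2 (3.56 in each). SEMA3C was higher in KO by 1.33 (SE 0.43, adjusted p = 0.024) with libraries that overlapped, and was not called without TGF-β replicate 2 (0.93), KO1 replicate 1 (1.13) or KO2 replicate 1 (1.13). EFNA3 and SEMA4D overlapped between the groups and EFNA1 did not. The ephrins EFNA3 (−3.46, adjusted p = 0.032) and EFNA1 (−3.19, adjusted p = 0.029) and the semaphorin SEMA4D (−1.10, adjusted p = 0.0073) were lower in KO. EFNA3 lost its call without TGF-β replicate 1 (−2.84) or 2 (−4.09), KO1 replicate 2 (−2.38) or KO2 replicate 1 or 2 (−3.46 in each). EFNA1 did so without TGF-β replicate 1 (−3.21) or 2 (−3.17), KO1 replicate 1 (−1.88) or KO2 replicate 2 (−2.39), and SEMA4D without TGF-β replicate 1 (−0.96), KO1 replicate 1 (−0.91) or KO2 replicate 1 (−0.75).

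The 2 clones differed from each other in 4 members (10.5%), where 6.97% of all genes were called. EFNB2 was lower in KO1 than in KO2 by −1.59 (SE 0.09, adjusted p = 4.1e-08), and both of its KO1 libraries lay below both KO2 libraries. SEMA3C was higher in KO1 by 2.02 (SE 0.49, adjusted p = 0.012), and lost its call without KO1 replicate 1 (1.61) or KO2 replicate 2 (1.62). SEMA4D was lower in KO1 by −1.33 (SE 0.33, adjusted p = 0.013), and leaving out KO1 replicate 1 gave −0.94 and KO2 replicate 2 gave −0.63, not called in either case, while without KO2 replicate 1 it was −2.02. PLXNA2 had 10.6 and 116 in KO1 and 3.15 and 0 in KO2 (log2 difference 4.18, SE 1.20, adjusted p = 0.029). That difference was 2.51 without KO1 replicate 2 and 3.16 without KO2 replicate 2, not called in either case. EPHA2, a receptor of ephrin-A ligands, was far apart between duplicates, with 12.5 and 199 in KO1. How many members were called between the clones depended on the library left out, and no share of all genes is given beside it.

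The rescue clones had more SEMA7A and EFNB2 and less NRP2 than the KO clones, while SEMA6A and SEMA4G were lower still than in WT. In the mean of both rescue clones against the mean of both KO clones, 14 members (36.8%) were called, 5 higher and 9 lower, where 23.3% of all genes were called (median change −0.15 for the members and 0.00 for all genes). Equal library totals moved the median of all genes by 0.39 and gave 7 higher and 6 lower, without the calls of NRP2, PLXNA3 and PLXNB2. The KO libraries here are the ones compared with WT above. For each rescue clone against KO2 alone the share of all genes called is not given, so these counts cannot be set against it. Against KO2 alone 10 members were called for Rescue1 and 11 for Rescue2. SEMA3C, SEMA4F (adjusted p = 0.069 and 0.20) and EFNA1 (adjusted p = 0.075 and 0.16) were then called for neither clone, SEMA3E was not called for Rescue1 (adjusted p = 0.27) and SEMA4A not for Rescue2 (adjusted p = 0.18), while SEMA3A was called higher for Rescue2 (1.03, adjusted p = 0.023). The epithelial markers summed to 35930 to 40499 in the rescue clones, against 10130 to 20650 in KO, and the fibroblast and mesenchymal markers to 830.1 to 1536, against 100072 to 236651. Of the epithelial markers KRT8 alone was called higher and CLDN1 was called lower, with a median change of 0.08. CDH1 did not exceed 0.78 in the rescue clones. EPCAM had 438 to 691 there, against 296 and 218 in KO1 and 901 and 838 in KO2. Of the mesenchymal markers DCN, COL1A1, PDGFRA, LUM and THY1 were called lower. The part of these marker differences in the members' changes was not tested.

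EFNB2 had 1575 and 1582 normalized counts in Rescue1 and 2023 and 1893 in Rescue2, against 149 to 501 in KO. All 4 rescue libraries lay above both WT libraries (1151 and 1037), which were kept in less serum. The log2 change was 2.73 (SE 0.07, adjusted p = 1.3e-13). SEMA7A had 3395 and 3489 in Rescue1 and 4933 and 5058 in Rescue2, against 389 to 502 in KO (3.18 in log2, SE 0.16, adjusted p = 6.3e-10). EFNA1 had 83.8 to 170 in the rescue clones and 0 to 54.9 in KO (log2 change 3.53, SE 0.86, adjusted p = 0.0037), and 2.22 without KO1 replicate 1. NRP2 fell to 8027 and 7483 in Rescue1 and 7827 and 7727 in Rescue2 (−1.29 in log2, SE 0.05, adjusted p = 4.4e-11), and the 4 libraries lay close together between WT and KO. PLXNA3 fell by 1.37 (SE 0.24, adjusted p = 2.6e-04) and PLXNB2 by 1.02 (SE 0.07, adjusted p = 2.9e-08) on the log2 scale, and PLXNB2 was not called without KO2 replicate 1 (−0.94), Rescue1 replicate 2 (−0.98) or Rescue2 replicate 1 (−0.95). EPHA4 had 2.53 to 8.13 in the rescue clones and 46.3 to 115 in KO (log2 change −3.53, SE 0.86, adjusted p = 0.0036).

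SEMA6A stayed low. It had 41.2 and 15.4 normalized counts in Rescue1 and 4.52 and 6.46 in Rescue2, below the 88.7 to 113 of all 4 KO libraries (−2.93 in log2, SE 0.31, adjusted p = 1.9e-06). SEMA4G was at 0 in all 4 rescue libraries, and with KO also at or under the floor no fold is given. SEMA3B, a secreted semaphorin, had 93.5 and 72.0 in Rescue1 and 125 and 123 in Rescue2, below the 269 to 656 of KO (log2 change −2.10, SE 0.14, adjusted p = 1.7e-08). SEMA3C fell by 1.92 on the log2 scale (SE 0.35, adjusted p = 3.6e-04), with 206 to 586 in the rescue clones, which overlapped with the 543 of KO2 replicate 2. The high libraries were the 3849 and 2181 of KO1, and against KO2 alone SEMA3C was called in neither clone, with −1.34 (adjusted p = 0.053) for Rescue1 and −0.48 (adjusted p = 0.52) for Rescue2. SEMA6D had 0 to 5.67 in the rescue clones and 12.2 to 28.8 in KO (log2 change −3.68, SE 0.64, adjusted p = 2.4e-04). SEMA3E (at least 6.99-fold higher by the rescue mean, adjusted p = 0.014, with libraries that overlapped), SEMA4A (−2.47, adjusted p = 0.016) and SEMA4F (1.17, adjusted p = 0.0097) were also called. SEMA3E was not called without KO1 replicate 2 (2.86) or Rescue1 replicate 2 (2.14), SEMA4A without KO2 replicate 2 (−2.02) or Rescue2 replicate 2 (−1.93), and SEMA4F without KO1 replicate 2 (0.91). EPHB2, with 8007 to 9220 in the rescue clones and 3778 to 5263 in KO, rose by 0.92 (adjusted p = 2.6e-08), under the fold required.

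**Figure D5:**
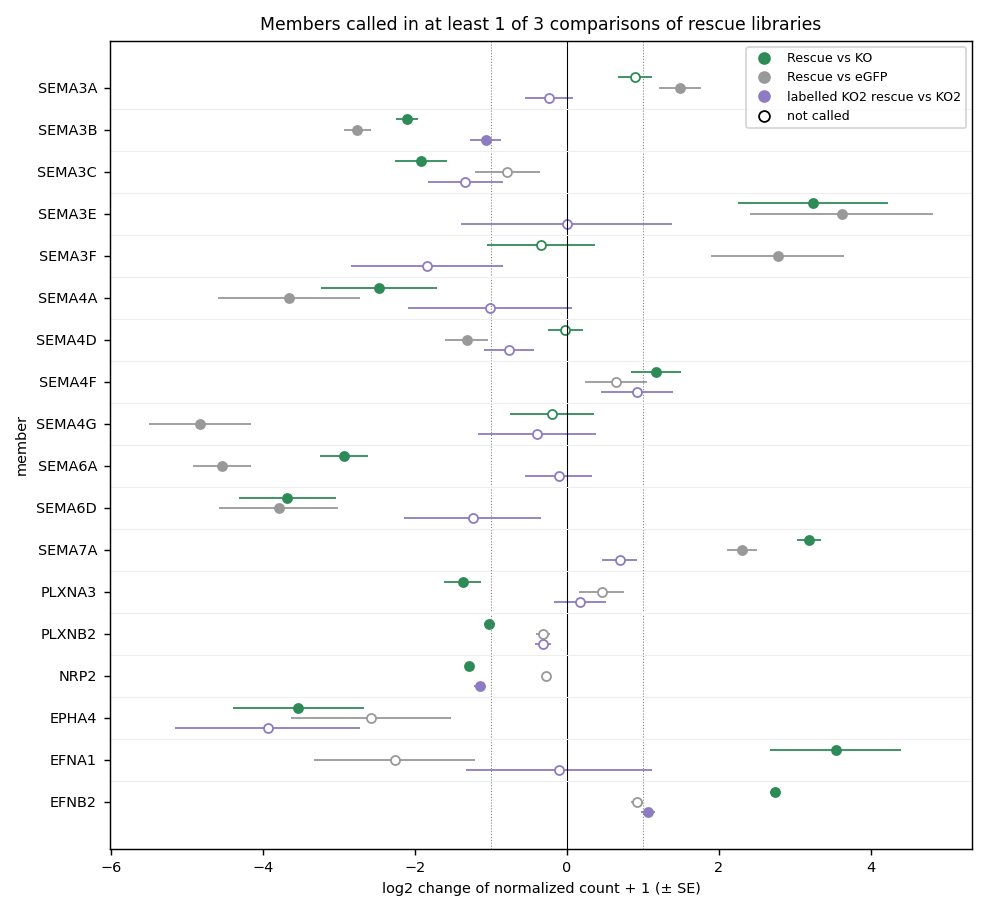
Log2 change of normalized count + 1 (x axis, points with SE) of the members (y axis) called in rescue against KO, rescue against eGFP or labelled KO2 rescue against KO2, with open points for changes not called. SEMA7A is higher and SEMA6A lower in the rescue clones against both KO (3.18 and −2.93) and eGFP (2.30 and −4.53).

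The eGFP-transduced WT cells share the 10% serum of the rescue clones. Against them 10 members (26.3%) were called, 4 higher and 6 lower in rescue, all of them semaphorins, where 13.1% of all genes were called (median change −0.29 for the members and 0.00 for all genes). SEMA7A had 767 and 918 normalized counts with eGFP, below all 4 rescue libraries, a log2 difference of 2.30 (SE 0.20, adjusted p = 6.6e-07). SEMA3A was higher in rescue by 1.48 (SE 0.27, adjusted p = 7.8e-04), with 193 and 176 with eGFP and 329 to 788 in rescue. SEMA6A had 325 and 277 with eGFP, a difference of −4.53 (SE 0.38, adjusted p = 5.4e-07), and SEMA4G had 28.9 and 25.9, at least 9.14-fold lower in rescue (adjusted p = 7.0e-05). SEMA3B (−2.76, SE 0.18, adjusted p = 2.9e-08) and SEMA4D (−1.32, SE 0.29, adjusted p = 0.0027) were lower in rescue, with no overlap. NRP2 and EFNB2 differed by less than the fold required, NRP2 by −0.27 (adjusted p = 0.0045) and EFNB2 by 0.92 (adjusted p = 6.9e-07). The low-count SEMA6D (−3.79), SEMA4A (−3.65), SEMA3E (at least 6.99-fold higher by the rescue mean) and SEMA3F (2.77) completed the calls, with adjusted p from 0.0019 to 0.034. SEMA3E and SEMA3F overlapped between the groups, and SEMA3E was at 0 in Rescue1 replicate 1 as in both eGFP libraries. SEMA6D and SEMA4A were not called without eGFP replicate 1 (−2.92 and −2.88). SEMA3F was not called without eGFP replicate 1 (0.54), Rescue1 replicate 2 (2.69) or Rescue2 replicate 1 (2.74) and was 5.00 without eGFP replicate 2. SEMA3E was not called without Rescue1 replicate 2 (2.52), Rescue2 replicate 1 (3.55) or 2 (3.68) or eGFP replicate 1 or 2 (3.62 in each). Without eGFP replicate 1 the count was 6.

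In the group labelled KO2 rescue, where SETD2 mRNA was not raised, 3 members (7.89%) were called against KO2, 1 higher and 2 lower, where 4.17% of all genes were called (median change 0.19 for the members and 0.00 for all genes). NRP2 had 7868 and 8181 normalized counts there against 18716 and 16940 in KO2 (log2 change −1.15, SE 0.07, adjusted p = 7.6e-08). EFNB2 had 968 and 957 against 501 and 419 (log2 change 1.07, SE 0.09, adjusted p = 1.9e-06), and 0.94, not called, without KO2 replicate 2. SEMA3B fell by 1.07 on the log2 scale (SE 0.20, adjusted p = 0.0029), and its call was lost without KO2 replicate 1 (−0.85). SEMA7A, at 763 and 759, was above both KO2 libraries and not called (0.70, adjusted p = 0.071), and SEMA6A, at 113 and 67.7, overlapped with KO2. These libraries share 2% serum with KO2. Their epithelial markers summed to 39752 to 41000 and their fibroblast and mesenchymal markers to 39186 to 41516, above and below those of KO2. KRT8 alone was called among the epithelial markers, higher, and DCN alone among the mesenchymal markers, lower. The part of these shifts was not tested.

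Transduction with SOX2, OCT2 or PRRX1 was followed by no call of a member against eGFP. With limma 0 members were called in each of the 3 comparisons, where 0.0206%, 0.0343% and 0.0411% of all genes were called, and 6, 3 and 2 members had an unadjusted p under 0.05 (3, 2 and 1 of them with the fold required). Without eGFP replicate 2, 1 member was called in each. NRP2 had 8619 to 10055 in these 6 libraries and SEMA7A 708 to 960, both overlapping with eGFP. The eGFP cells themselves differed from WT, which had less serum and no vector, in 4 members (10.5%), where 12.7% of all genes were called. Epithelial markers summed to 19297 to 20313 with eGFP, below WT, with EPCAM called lower, and of the mesenchymal markers (3683 to 4233 with eGFP) DCN and THY1 were called higher and COL1A1 lower. The part of these shifts was not tested. SEMA6A fell by 2.34 on the log2 scale (SE 0.44, adjusted p = 0.0011) and SEMA7A by 1.44 (SE 0.23, adjusted p = 2.7e-04). NRP1 rose by 1.29 (SE 0.26, adjusted p = 0.0020), and SEMA3C rose by 1.69 (SE 0.49, adjusted p = 0.019), which was 0.76 without WT replicate 1, 1.85 without eGFP replicate 1 and 1.54 without eGFP replicate 2, not called in these cases, and 2.63 without WT replicate 2. SEMA7A was −0.92 and not called without WT replicate 1. The count was 2 when WT replicate 1 was left out and 8 when WT replicate 2 was. EFNA1 had 431 to 692 in the 8 transduced WT libraries and 153 and 176 in WT, and with eGFP it was not called (1.84 in log2, SE 1.22, adjusted p = 0.31).

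Of the 38 members tested, 12 were called in no comparison. These were SEMA4C, SEMA6B, SEMA6C, PLXNB1, PLXNB3, PLXNC1, PLXND1, EPHA2, EPHA10, EPHB2, EPHB4 and EFNA4. The share of all genes called in no comparison is not given, so this count of 12 cannot be set against it. EPHB2, PLXNB1 and PLXND1 were expressed in every library, at 3778 to 9220, 509 to 1741 and 572 to 1302 normalized counts, and moved by less than the fold required. PLXND1, the receptor of SEMA3E, was higher with eGFP than in WT by 0.90 (adjusted p = 0.0011), and PLXNB1, the receptor of SEMA4D, was lower in KO than with TGF-β by −0.90 (adjusted p = 0.014). The others did not exceed 241 normalized counts in any library, and EPHA10, a receptor without kinase activity, did not exceed 13.4.

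Some members lie side by side in the genome (GRCh38). EFNA4, EFNA3 and EFNA1 lie within 1 stretch of chromosome 1 from 155063737 to 155134899, and of these EFNA1 alone was called in KO1. EFNA4 was just over the cutoff there, with a log2 change of −3.14 (limma adjusted p = 0.0504). The call of EFNA1 was lost without KO1 replicate 1 (−2.13), so the 2 genes are not set apart by these calls. SEMA3F and SEMA3B lie 78.5 kb apart on chromosome 3, and against KO SEMA3B was called lower in the rescue clones while SEMA3F was not called. On chromosome 7 SEMA3E, SEMA3A and SEMA3D follow each other from 83363238 to 85187056, and with TGF-β SEMA3A alone was called among them.

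Genes that act with these ligands and receptors were read from 2 lists. Of 36 semaphorin and plexin partners, 30 were tested, and 5 were called higher and 0 lower with TGF-β, 5 higher and 3 lower in KO1, 4 higher and 1 lower in KO2, and 4 higher and 6 lower in rescue against KO. These are 16.7%, 26.7%, 16.7% and 33.3% of the partners tested, beside 7.84%, 25.0%, 16.3% and 23.3% of all genes. Against TGF-β, KO had 6 higher and 5 lower (36.7%, beside 20.2% of all genes), and with SOX2, OCT2 or PRRX1 against eGFP 0 were called in either list. eGFP against WT had 1 higher and 2 lower (10%, beside 12.7% of all genes). The median change was 0.24 with TGF-β, 0.28 in KO1, −0.06 in KO2 and −0.08 in rescue. With TGF-β the largest changes were those of DPYSL3, a collapsin response mediator (2.10, adjusted p = 0.0017), LIMK2, a kinase of cofilin (1.49, adjusted p = 0.0038), and ITGB1, the integrin subunit that binds SEMA7A (1.30, adjusted p = 2.5e-05). PLXNC1, the plexin that binds SEMA7A, did not exceed 41.4 normalized counts in any library. In KO1 and KO2 they were FYN, a kinase of the Src family (8.08, adjusted p = 8.2e-09, and 7.36, adjusted p = 4.3e-08), KDR, a receptor for vascular endothelial growth factor that couples to neuropilins (adjusted p = 1.4e-05 and 1.5e-05), and the collagen-binding integrin ITGA1 (4.07, adjusted p = 7.7e-09, and 3.66, adjusted p = 4.7e-08). The mean of FYN was 7.68 normalized counts in WT and rose to 2150 ± 437 in KO1 and 1291 ± 26.1 in KO2 (SD, n = 2). KDR, at a mean of 0.385 in WT, had 113 ± 14.6 and 136 ± 13.5. In rescue against KO, KDR (−4.09, adjusted p = 3.1e-05) and ITGA1 (−3.96, adjusted p = 1.9e-10) fell and the plexin-binding GTPase RND1 rose (2.17, adjusted p = 0.047). Against eGFP 3 partners were higher and 1 lower in rescue (13.3%, beside 13.1% of all genes), led by FYN (4.03, adjusted p = 7.1e-06). In labelled KO2 rescue against KO2, 1 was higher and 3 lower (13.3%, beside 4.17% of all genes). MET, a receptor that plexins of class B bind, fell there from 18599 ± 784 to 6708 ± 332 (−1.47, adjusted p = 1.0e-09). NRCAM, a partner of neuropilins, was the one gene called between the clones (2.54 in KO1 against KO2, adjusted p = 2.5e-06), or 3.33% beside 6.97% of all genes.

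Of 36 Eph and ephrin partners, 34 were tested, with 1 called higher and 2 lower with TGF-β, 3 higher and 3 lower in KO1, 2 higher and 2 lower in KO2, and 2 higher and 1 lower in rescue against KO. The shares called were 8.82%, 17.6%, 11.8% and 8.82%, in KO1, KO2 and rescue below the share of all genes. Against TGF-β, KO had 4 higher and 4 lower (23.5%, beside 20.2% of all genes). KO1 against KO2 had 1 and 1 (5.88%, beside 6.97%), and rescue against eGFP 2 and 3 (14.7%, beside 13.1%). Labelled KO2 rescue against KO2 had 0 and 1 (2.94%, beside 4.17%), and eGFP against WT 3 and 2 (14.7%, beside 12.7%). The median change was −0.01 with TGF-β, −0.06 in KO1, −0.02 in KO2 and 0.23 in rescue. VAV3, an activator of small GTPases that Eph receptors recruit, fell from 279 ± 34.0 normalized counts in WT to 51.1 ± 11.4 with TGF-β (log2 change −2.44, adjusted p = 0.012), to 11.2 ± 5.77 in KO1 (−4.59, adjusted p = 2.5e-05) and to 6.45 ± 4.77 in KO2 (−5.39, adjusted p = 8.2e-06). RGS3, which binds ephrin-B, rose with TGF-β (1.42, adjusted p = 4.5e-05), and ADAM10, a protease that cleaves ephrins, fell (−1.13, adjusted p = 2.0e-06). The phosphatase PTPN13 fell (−2.25, adjusted p = 1.2e-05) and SRC rose in KO1 (1.89, adjusted p = 3.5e-09), and LYN (1.96, adjusted p = 0.0040) and VAV2 (1.28, adjusted p = 3.0e-09) rose in KO2. In rescue against KO, RHOA (1.44, adjusted p = 1.2e-04) and RASA1, a GTPase activator bound by EPHB2 (1.40, adjusted p = 3.4e-10), rose and SRC fell (−1.24, adjusted p = 6.7e-09). VAV3 stayed low in rescue, at 8.56 ± 5.09 against 197 ± 38.8 with eGFP (−4.64, adjusted p = 1.1e-05).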

How the data were processed

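Bulk RNA-seq of 22 RPTEC libraries in 11 groups of 2 was analysed. The authors quantified reads with Salmon 1.9.0 on the Ensembl 94 cDNA of GRCh38 and normalized them with DESeq2 1.26.0, per the study's methods and the submitters' processing notes. The deposited values are log2 values that match the variance-stabilizing transformation of DESeq2, a reading from the values themselves, since the sources used here do not give it. The transformation was inverted, with the shared minimum of 11.32 taken as a count of 0, to give normalized counts. Of 36859 genes, 14585 that reached 10 normalized counts in 2 or more libraries entered the test on log2(normalized count + 1) with limma 3.58.1 (R 4.3.3, 1 fit with a mean per group, variance trend, no covariate, Benjamini-Hochberg adjustment). On this scale the added 1 shrinks the change of low genes. Where 1 replicate lay near 0, the fitted change could instead exceed that between the group means. EFNA1 in KO1, for example, had a fitted fold of 26.8 at means of 18.4 in KO1 and 164 in WT. A call required an adjusted p under 0.05 and a log2 change beyond 1 in either direction. Lengths and coordinates came from GENCODE 44 (33878 genes matched). The scripts were tested on simulated data.

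The members and lists were chosen with earlier results of these data known. All called members are named where 12 or fewer were called in a comparison, and here also in the longer ones, and of the partner lists the called genes with the 3 largest changes are named. Groups with both libraries at or under 3 normalized counts were given a fold bound against that floor. The alternatives were other pseudocounts, filters and scalings, the groups compared alone, the deposited log2 values, a replicate block and the leaving out of each library.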

Additional observations from a re-analysis of the deposited data

Results flagged for a closer look

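Members whose response differed between SETD2 loss and TGF-β were singled out by the direct test of KO (the mean of both clones) against TGF-β. SEMA3A (2.97), NRP1 (3.20), SEMA3C (1.33), NRP2 (1.14) and SEMA3D (3.56) were higher in KO on the log2 scale. SEMA7A (−4.01), EFNB2 (−2.38), SEMA6A (−2.69), PLXNA1 (−1.41), PLXNA4 (−5.45), SEMA4G (−3.47), EFNA3 (−3.46), EFNA1 (−3.19) and SEMA4D (−1.10) were lower in KO. For SEMA4G and SEMA3D 1 group lay at or under the floor, so their values are fitted and set no bound. NRP1 and SEMA7A were each called on opposite sides of WT, NRP1 lower with TGF-β and higher in both KO clones and SEMA7A the reverse. The direction in KO was not particular to it. In eGFP cells against the same WT libraries NRP1 was also called higher (1.29) and SEMA7A lower (−1.44), where serum and the vector differ.

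Between the clones, SEMA3C (2.02) and PLXNA2 (4.18) were higher and EFNB2 (−1.59) and SEMA4D (−1.33) lower in KO1 than in KO2. The label KO2 rescue was at odds with its SETD2 mRNA, with a mean of 827 normalized counts against 1051 in KO2 and 10105 in Rescue2.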

How the results depend on the processing

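No named call changed direction under any alternative that was run. Of 82 named calls, 81 held with a pseudocount of 5, 78 with 0.5, 79 with quantile normalization (not PLXNA3 with TGF-β, NRP2 in KO against TGF-β or PLXNB2 in rescue against KO), 76 with equal totals, 75 without a filter on low values and 47 when only the groups compared entered the fit. All 62 that could be tested held with a mean of at least 50. On the deposited log2 values, where the minimum of 11.32 compresses changes by construction, 5 held. The number of members called then was 0 with TGF-β, 2 in KO1, 1 in KO2, 1 in KO against TGF-β, 0 in KO1 against KO2, 1 in rescue against KO and 0 in rescue against eGFP, labelled KO2 rescue against KO2 and eGFP against WT. With only the groups compared it was 0 with TGF-β, 6 in KO1, 0 in KO1 against KO2 and 2 in eGFP against WT, a fit with fewer libraries. Without a filter it was 6 with TGF-β and 5 in labelled KO2 rescue, and with a mean of at least 50 it was 5 in rescue against eGFP. With unadjusted p it was 5 in labelled KO2 rescue, 3, 2 and 1 with SOX2, OCT2 and PRRX1 and 8 in eGFP against WT.

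With each library left out in turn, the number called was 4 to 8 with TGF-β, 11 to 15 in KO1, 8 to 10 in KO2, 10 to 15 in KO against TGF-β, 1 to 9 in KO1 against KO2, 12 to 17 in rescue against KO, 6 to 10 in rescue against eGFP, 2 to 3 in labelled KO2 rescue, 0 to 1 with SOX2, OCT2 or PRRX1 and 2 to 8 in eGFP against WT. A lone library is then assumed to vary like the other groups. The share of all genes called under each alternative, or with a library left out, is not given. The counts of members in those fits, here and above, therefore cannot be set against it.

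Samples that share a replicate number did not deviate together (correlations −0.08 to 0.05 over 55 pairs of groups). With a replicate block the number called was 7 with TGF-β, 13 in KO1, 11 in KO2, 14 in KO against TGF-β, 4 in KO1 against KO2, 14 in rescue against KO, 11 in rescue against eGFP, 4 in labelled KO2 rescue, 0 with SOX2, OCT2 and PRRX1 and 5 in eGFP against WT. It lost 4 named calls, SEMA3C, PLXNA3 and SEMA6D with TGF-β and SEMA3E in KO2. At 2 libraries a group, low members carried standard errors of up to 2.53 on the log2 scale (EPHB4), and smaller differences were not detectable there.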
